A study of Mus musculus with 8 samples.

Results

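The genes described here encode 10 B cell surface proteins, light zone markers, costimulatory molecules and cytokine or survival factor receptors among them: Cd83, Cd86, Cd40, Fcer2a, Icosl, Il21r, Il4ra, Slamf1, Tnfrsf13b and Tnfrsf13c. They were taken by symbol from a table of 55421 gene identifiers, and each of the 10 matched 1 identifier. RNA was sequenced in bulk from 8 libraries of splenic germinal centre B cells of C57BL/6 mice aged 8 to 10 weeks, taken 10 days after immunization and enriched with beads that bind peanut agglutinin (PNA). The mice carried both Smarca4 copies (Smarca4+/+) or 1 of them (Smarca4+/-), the gene of a SWI/SNF chromatin remodelling ATPase. The cells were divided into fractions labelled CB and CC, read here as centroblasts of the dark zone and centrocytes of the light zone, with 2 libraries in each of the 4 groups. The labels do not say which surface proteins separated CB from CC, whether a Cre line was used to delete Smarca4, or whether replicates came from separate mice, so p-values measure only the spread between libraries.

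In a germinal centre, B cells divide and mutate their receptor genes in the dark zone and then test the receptor in the light zone. There they take up antigen, show it to T follicular helper cells, and receive CD40 ligand, IL-4 and IL-21 in return. CD86 and ICOS ligand act on the T cell, CD40 and the cytokine receptors act in the B cell, and the receptors of the factors BAFF and APRIL add survival signals. CD86 and CD83 proteins are also common marks for sorting light zone cells, so where a sort of that kind was used, a difference of Cd86 or Cd83 between the fractions follows from the sort.

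Gene expression is given as CPM, a gene's reads relative to the library total after TMM scaling, and where genes are set against each other as RPKM, which also divides by exon length. The CB libraries held 18357578 to 24341805 reads and the CC libraries 526353 to 837558, so a gene of this set rested on 424 to 6005 reads in a CB library and on 18 to 308 in a CC library. Smarca4+/- CC replicate 2 stood apart from the other CC libraries, with summed macrophage markers of 1558 CPM against 2965 to 3651 CPM. Smarca4 itself stood at 897 and 1002 CPM in Smarca4+/+ CB against 734 and 702 CPM in Smarca4+/- CB, and at 322 and 316 against 244 and 311 CPM in CC. The Smarca4+/- level was thus 0.756 of the Smarca4+/+ level in CB and 0.872 in CC, without overlap, and neither difference passed the edgeR test (adjusted p = 1 and 0.607). Of 10 B cell genes such as Cd79a and Ms4a1, none was at 0 in any library, which tells that B cell RNA was present and not how pure the libraries were.

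Upstream sequences are shown for Fcer2a, which changed most between the fractions, for Slamf1, which holds the same kind of match, and for Il4ra, the IL-4 receptor gene, which did not pass in any comparison. They are the 250 bases before a RefSeq start (GRCm38.p6), 5′ to 3′ on the gene's strand, with matches in capitals. RefSeq windows were matched for 7 of the 10 genes, 9 windows in all, of which 3 belonged to Fcer2a. Both strands were searched for a STAT6-type palindrome (TTC and GAA spaced by 4 bases), the form bound downstream of IL-4, for the octamer ATGCAAAT bound by OCT factors, for an NF-kB-type site (GGGA, any base, TTTCC), and for the TATA box letters TATAAAA.
Fcer2a, chr8:3694175-3694424, minus strand, first start: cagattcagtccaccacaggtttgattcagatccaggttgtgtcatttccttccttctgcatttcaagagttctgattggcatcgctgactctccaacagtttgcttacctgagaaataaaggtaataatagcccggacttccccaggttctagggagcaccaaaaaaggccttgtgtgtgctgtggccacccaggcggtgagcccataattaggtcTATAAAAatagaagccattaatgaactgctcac
Fcer2a, chr8:3690862-3691111, minus strand, internal start: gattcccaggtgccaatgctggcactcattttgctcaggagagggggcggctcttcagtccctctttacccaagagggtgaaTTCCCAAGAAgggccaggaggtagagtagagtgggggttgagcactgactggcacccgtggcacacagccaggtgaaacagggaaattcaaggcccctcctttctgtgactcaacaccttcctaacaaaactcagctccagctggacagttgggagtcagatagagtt
Slamf1, chr1:171766882-171767131, plus strand: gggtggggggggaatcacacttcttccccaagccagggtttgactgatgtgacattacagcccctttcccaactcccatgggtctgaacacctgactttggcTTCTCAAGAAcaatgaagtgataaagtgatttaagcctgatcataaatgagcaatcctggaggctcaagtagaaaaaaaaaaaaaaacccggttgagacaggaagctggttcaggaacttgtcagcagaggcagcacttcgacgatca
Il4ra, chr7:125552021-125552270, plus strand: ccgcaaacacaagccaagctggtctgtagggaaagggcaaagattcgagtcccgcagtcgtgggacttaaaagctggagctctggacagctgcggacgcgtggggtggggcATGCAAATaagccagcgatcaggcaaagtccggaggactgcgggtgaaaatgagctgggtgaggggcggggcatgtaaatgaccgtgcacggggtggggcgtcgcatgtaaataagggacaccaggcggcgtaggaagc
The first Fcer2a window held a TATA box 33 bases before the start, and the internal one a STAT6-type match 168 bases before it. Slamf1 held a STAT6-type match at 148 bases and Il4ra an octamer at 139 bases. The Il4ra window runs past the first base of the gene's span in the count table (chr7:125552120), and the octamer lies within that span. Of 32851 mouse windows of this length, 5.85% held the STAT6-type letters, 1.6% the octamer, 0.356% the NF-kB-type letters and 4.98% the TATA letters. The other 5 windows, among them those of Icosl, Il21r, Tnfrsf13b and Tnfrsf13c, held no match to any of the 4 motifs, and such letters say nothing of what was bound in these cells.

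Per length, the gene of the BAFF receptor led the set in every group and those of CD40 and SLAM closed it. In Smarca4+/+ CB the order ran from Tnfrsf13c at 138 RPKM through Il21r (75.7), Cd83 (55.4), Il4ra (42.2) and Tnfrsf13b (30.8) to Slamf1 (8.97) and Cd40 (8.06). Between them stood Fcer2a (20.8 RPKM), Cd86 (19.8) and Icosl (19.6), whose libraries overlapped, so that these 3 were not told apart. In Smarca4+/+ CC the order became Tnfrsf13c (148 RPKM), Cd83 (84.6), Il21r (71.7), Fcer2a (59.8), Tnfrsf13b (46.8), Cd86 (39.6), Il4ra (38.8), Icosl (23.4), Slamf1 (14.3) and Cd40 (11.4). There the libraries of Cd83 and Il21r overlapped, as did those of Il21r and Fcer2a, of Cd86 and Il4ra, and of Il4ra and Icosl. Fcer2a averaged 13.5 RPKM in Smarca4+/- CB, where its libraries overlapped those of Icosl, and 53.1 RPKM in Smarca4+/- CC. In Smarca4+/- CC the libraries of all neighbours in the order overlapped except at Tnfrsf13c over Cd83 and at Tnfrsf13b over Il4ra.

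**Figure D1:**
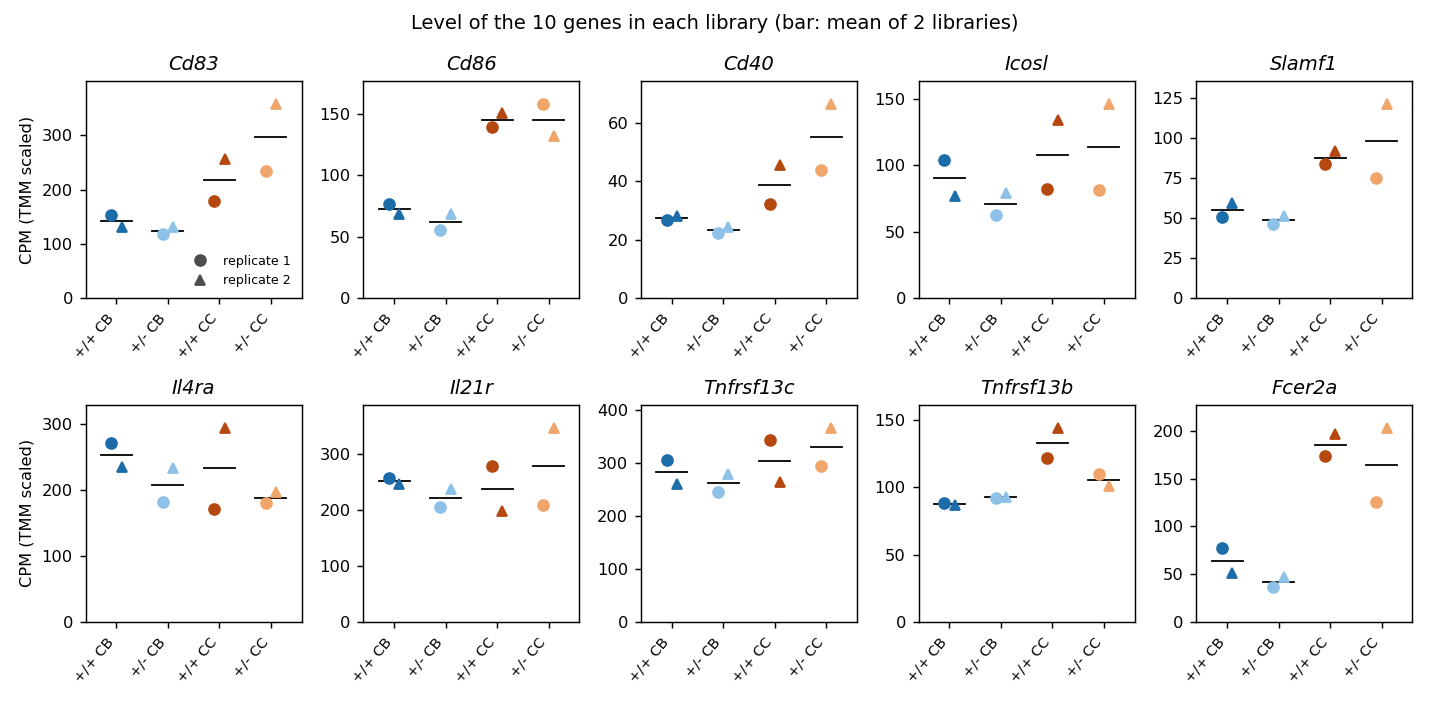
Level of each gene in the 8 libraries, in CPM on axes that start at 0, with circles for replicate 1, triangles for replicate 2 and a bar at the mean of 2 libraries. Fcer2a and Cd86 lie higher in all 4 CC libraries than in all 4 CB libraries, while Il4ra and Il21r overlap between the fractions.

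Which of these genes differed between centroblasts and centrocytes was asked first. In Smarca4+/+ cells 2 of the 10 rose in CC (Fcer2a and Cd86), none fell, and 8 did not pass the edgeR test, against 7.49% of all 12997 genes called, 3.72% higher and 3.76% lower. In Smarca4+/- cells 3 rose (Fcer2a, Cd86 and Cd83), none fell and 7 did not pass, against 3.67% called, 2.17% higher and 1.5% lower. Without Smarca4+/- CB replicate 1 or 2, edgeR called none of all genes in Smarca4+/- cells (863 and 1003 at an unadjusted p under 0.05), so every call in that genotype, marker and pathway genes included, ended with either library left out. The median log2 fold change of the set was 0.56 in Smarca4+/+ and 0.84 in Smarca4+/- cells, beside medians over all genes of -0.19 and -0.08. Since these are bulk libraries, a lower share of expressing cells and less RNA per cell cannot be told apart. The median of all genes in Smarca4+/+ cells moved to -0.00404 with total count scaling and to 0.06 when libraries were scaled to 10 B cell genes, so changes near 0 depend on the scaling.

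**Figure D2:**
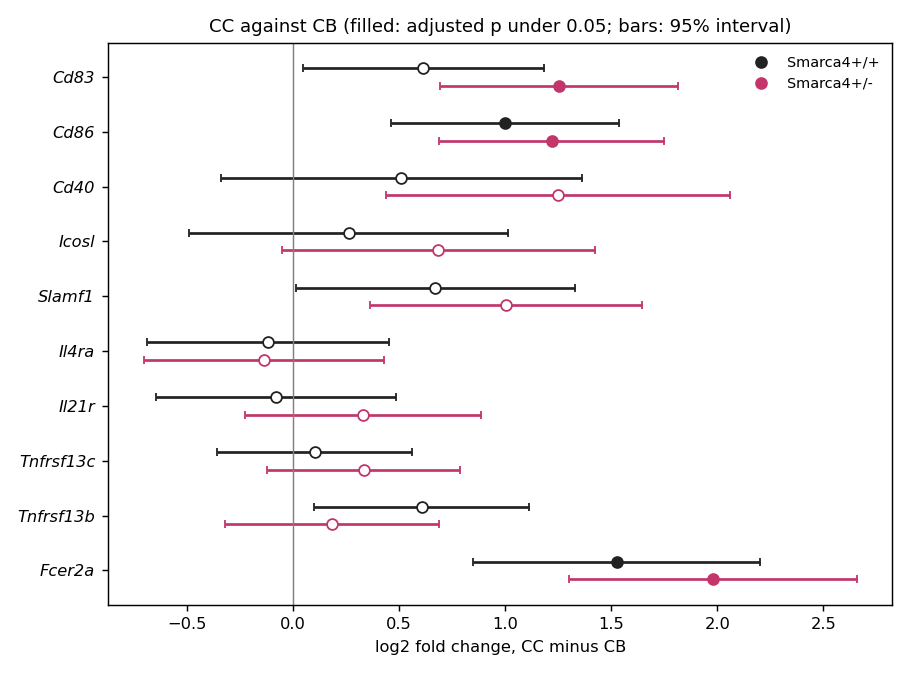
Log2 fold change of CC against CB for each gene in Smarca4+/+ (black) and Smarca4+/- (pink) cells with its 95% interval; filled points passed at an adjusted p under 0.05. Fcer2a lies farthest to the right in both genotypes (1.53 and 1.98), and Il4ra lies slightly left of 0 in both (-0.12 and -0.14).

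Fcer2a (ENSMUSG00000005540.10, mm10 chr8:3681737-3694175) encodes CD23, the low-affinity IgE receptor, which is induced by IL-4 and is abundant on naive follicular B cells. It stood at 77.1 and 51.3 CPM in Smarca4+/+ CB and at 173 and 196 CPM in Smarca4+/+ CC. Smarca4+/- libraries held 36.3 and 47.1 CPM in CB and 126 and 203 CPM in CC. All CC libraries lay above all CB libraries, and the lowest values were those of Smarca4+/- CB. The log2 fold change of CC against CB was 1.53 in Smarca4+/+ (SE 0.31, adjusted p = 0.0144) and 1.98 in Smarca4+/- cells (SE 0.31, adjusted p = 0.00692), a 2.88-fold and a 3.94-fold rise. Scaled to the B cell genes it was 1.79 and 2.09 (edgeR adjusted p = 0.00375 and 0.00314). The Smarca4+/+ call ended without CB replicate 2 (adjusted p = 0.133) and with only the Smarca4+/+ libraries fitted (0.0537), and in Smarca4+/- cells without CB replicate 1 (0.12) or replicate 2 (0.0882), while the Smarca4+/- value was 1.56 without CC replicate 2.

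The summed markers of naive follicular B cells were, like Fcer2a, higher in CC than in CB. Their 6 genes summed to 487 to 560 CPM in the CB libraries and to 787 to 1282 CPM in the CC libraries, 4 of 6 rose in Smarca4+/+ and 3 of 6 in Smarca4+/- cells, and none was at 0 in any library. Cr2, the gene of a complement receptor, rose with a log2 fold change of 1.66 and 1.60 in the 2 genotypes. Fcmr, 1 of the 6, had a lower mean in CC, 209 against 227 CPM in Smarca4+/+ and 193 against 240 CPM in Smarca4+/- libraries. Among the CC libraries the order differed. Smarca4+/- CC replicate 2 held the highest Fcer2a level (203 CPM) and the lowest naive sum (787 CPM). Smarca4+/- CC replicate 1 held the lowest Fcer2a level (126 CPM) and a naive sum of 1166 CPM. The part of naive cells in the Fcer2a difference was not tested. Fcer2a can also be expressed by follicular dendritic cells, whose markers summed to 3.36 to 8.74 CPM in CB and 3.27 to 60.8 CPM in CC, with none of 3 tested called. Their chemokine gene Cxcl13 was at 0 in 3 of the 4 CC libraries.

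Cd86 (ENSMUSG00000022901.13, chr16:36603869-36666081) encodes the costimulatory ligand that engages CD28 on T cells. It stood at 76.4 and 68.5 CPM in Smarca4+/+ CB and at 139 and 150 CPM in the CC libraries of that genotype. The Smarca4+/- values were 55.5 and 68.6 CPM in CB and 158 and 132 CPM in CC. The fractions did not overlap, and the CC libraries of the genotypes did (mean 145 ± 7.79 and 145 ± 18.4 CPM, SD, n = 2). The level was 2.00-fold higher in Smarca4+/+ CC (log2 fold change 1.00, SE 0.24, adjusted p = 0.032) and 2.33-fold higher in Smarca4+/- CC (1.22, SE 0.24, adjusted p = 0.0207). With B cell scaling the log2 fold changes were 1.26 and 1.38. The Smarca4+/+ call ended without Smarca4+/+ CB replicate 1 (adjusted p = 0.167) or 2 (0.235), Smarca4+/+ CC replicate 2 (0.0738), and Smarca4+/- CB replicate 1 (0.0534) or 2 (0.0572), and when only the Smarca4+/+ libraries were fitted (0.0668). The Smarca4+/- call ended without its CB replicate 1 (0.228) or 2 (0.13) and CC replicate 1 (0.135), and when only the Smarca4+/- libraries were fitted (0.052).

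Cd83 (ENSMUSG00000015396.4, chr13:43784775-43803132) encodes an activation antigen that holds MHC class II and CD86 at the cell surface. Its levels were 154 and 131 CPM in Smarca4+/+ CB, 118 and 131 CPM in Smarca4+/- CB, 179 and 257 CPM in Smarca4+/+ CC and 235 and 357 CPM in Smarca4+/- CC. It was higher in every CC library than in any CB library, and the spread within CC was wide. The log2 fold change was 1.25 in Smarca4+/- cells (SE 0.26, adjusted p = 0.0229) and 0.61 in Smarca4+/+ cells, where it did not pass (SE 0.26, adjusted p = 0.186). The difference between these 2 values was 0.64 (SE 0.36, 95% interval -0.15 to 1.43) and did not pass the interaction test (adjusted p = 0.592). The Smarca4+/- call ended without CC replicate 2 (0.89, adjusted p = 0.0811), without CB replicate 1 (adjusted p = 0.221) or 2 (0.164), and when only the Smarca4+/- libraries were fitted (0.0528).

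Ratios of reads within a library need no scaling, and they set Cd86 and Cd83 against Cxcr4, the chemokine receptor of dark zone cells. The labels do not name the proteins used for the sort. Where CXCR4, CD86 or CD83 protein was among them, a difference of these ratios between the fractions follows from the sort. The ratio of Cd86 to Cxcr4 reads was 0.378 and 0.356 in Smarca4+/+ CB and 0.216 and 0.288 in Smarca4+/- CB. In CC it was 4.33 and 3.29 in Smarca4+/+ and 3.28 and 1.68 in Smarca4+/- libraries. For Cd83 the ratio was 0.763 and 0.682 against 0.459 and 0.549 in CB, and 5.56 and 5.61 against 4.89 and 4.56 in CC. The CC ratios lay above the CB ratios. Within a fraction both Smarca4+/- ratios lay below both Smarca4+/+ ratios, barely so for Cd86 in CC (3.278 against 3.286). For the numerators this did not hold in CC, where the Cd86 levels of the genotypes overlapped and the mean of Cd83 was higher in Smarca4+/- libraries. The denominator Cxcr4 was higher in both Smarca4+/- libraries of each fraction, as were 16.2% of all genes in CB and 18.1% in CC, and it did not pass the edgeR test (adjusted p = 1 and 0.335). It stood at 202 and 192 CPM in Smarca4+/+ CB, 257 and 238 CPM in Smarca4+/- CB, 32.2 and 45.8 CPM in Smarca4+/+ CC and 48.1 and 78.2 CPM in Smarca4+/- CC. In the CC libraries the ratios rested on 18 to 66 Cxcr4 reads, and with 2 libraries against 2 an exact permutation test could not reach 0.05, so none was run.

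**Figure D3:**
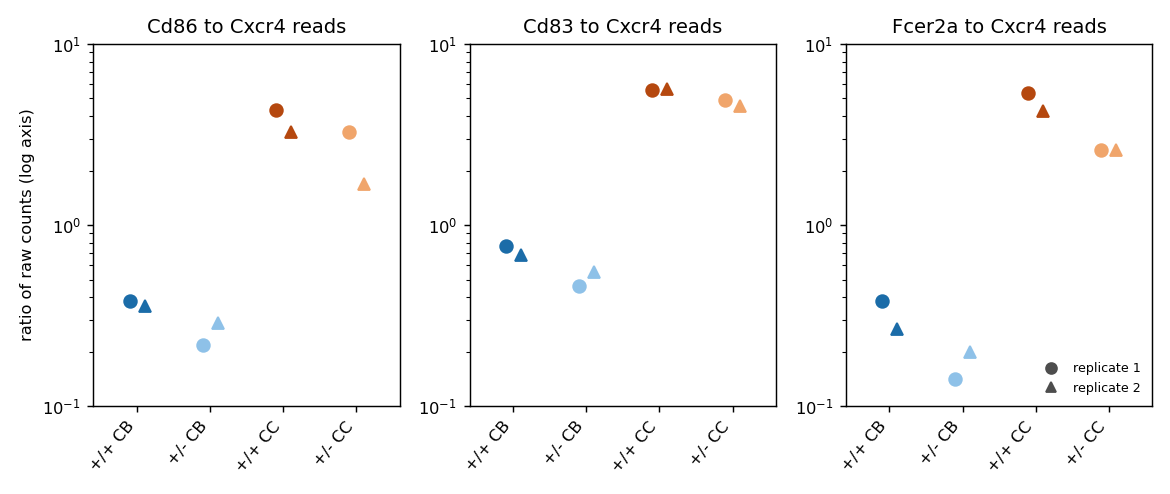
Reads of Cd86, Cd83 and Fcer2a divided by reads of Cxcr4 in each library, on a log axis, with circles for replicate 1 and triangles for replicate 2. Every CB ratio is below every CC ratio. Within a fraction both Smarca4+/- ratios lie below both Smarca4+/+ ratios, barely so for Cd86 in CC. Cxcr4, the shared denominator, was higher in both Smarca4+/- libraries of each fraction.

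Cd40, Icosl and Slamf1 had higher means in CC and did not pass the edgeR test in either genotype. Cd40 (ENSMUSG00000017652.16, chr2:165055627-165072948), the receptor of CD40 ligand, stood at 26.7 and 28.2 CPM in Smarca4+/+ CB and at 32.2 and 45.8 CPM in CC, the latter from 18 and 28 reads (log2 fold change 0.51, SE 0.39, adjusted p = 0.446). The exact Poisson 95% interval of the smaller Cd40 value, for counting error only, was 19.1 to 50.8 CPM, which spans the CB levels. With 1 Smarca4 copy Cd40 stood at 22.4 and 24.3 CPM in CB and at 44.1 and 66.4 CPM in CC (log2 fold change 1.25, SE 0.37, adjusted p = 0.096). DESeq2 called Cd40 in Smarca4+/- cells (adjusted p = 0.000142), as did the edgeR fit without Smarca4+/+ CC replicate 1 (0.0369) or 2 (0.0382).

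Slamf1 (ENSMUSG00000015316.11, chr1:171767127-171801184), a self-ligand receptor shared by B and T cells, stood at 51.0 and 59.4 CPM in Smarca4+/+ CB and at 84.0 and 91.5 CPM in CC. With 1 Smarca4 copy Slamf1 stood at 46.4 and 51.4 CPM in CB and at 74.8 and 121 CPM in CC. The CC libraries lay above the CB libraries in both genotypes, with log2 fold changes of 0.67 (SE 0.30, adjusted p = 0.208) and 1.00 (SE 0.29, adjusted p = 0.0902), and DESeq2 called both (adjusted p = 0.034 and 0.000924). Icosl (ENSMUSG00000000732.9, chr10:78069302-78083913), the ligand of ICOS on T follicular helper cells, stood at 104 and 77.1 CPM in Smarca4+/+ CB, 62.5 and 79.5 CPM in Smarca4+/- CB, 82.2 and 134 CPM in Smarca4+/+ CC and 81.5 and 146 CPM in Smarca4+/- CC. Its log2 fold changes of CC against CB were 0.26 (SE 0.34, adjusted p = 0.661) and 0.68 (SE 0.34, adjusted p = 0.311).

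The cytokine receptor genes did not show the pattern of Cd86. Il4ra (ENSMUSG00000030748.9, chr7:125552120-125579474), the binding chain for IL-4, stood at 272 and 235 CPM in Smarca4+/+ CB, 181 and 234 CPM in Smarca4+/- CB, 172 and 294 CPM in Smarca4+/+ CC and 180 and 197 CPM in Smarca4+/- CC. All groups overlapped between the fractions. The log2 fold changes of CC against CB were -0.12 (95% interval -0.69 to 0.45) and -0.14 (-0.71 to 0.43), with edgeR adjusted p = 0.802 and 0.823, and their sign changed with the scaling in Smarca4+/+ cells (0.01 to 0.12) and in Smarca4+/- cells with B cell scaling. An antisense gene that overlaps its exons, Gm44876, had 4 reads in 1 library and none in the other 7.

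Il21r (ENSMUSG00000030745.9, chr7:125603429-125633570), which starts 23954 bases beyond the end of Il4ra on the same strand, encodes the IL-21 receptor. It stood at 257 and 247 CPM in Smarca4+/+ CB, 205 and 238 CPM in Smarca4+/- CB, 279 and 198 CPM in Smarca4+/+ CC and 210 and 346 CPM in Smarca4+/- CC. The fractions overlapped in both genotypes. The log2 fold changes were -0.08 (95% interval -0.65 to 0.49), a sign that turned positive under each of the 3 other scalings (0.04 to 0.19), and 0.33 (-0.23 to 0.89), with edgeR adjusted p = 0.871 and 0.513.

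Tnfrsf13c and Tnfrsf13b encode BAFF-R and TACI, receptors of BAFF, of which TACI also binds APRIL. Tnfrsf13c (ENSMUSG00000068105.11, chr15:82221743-82224369) stood at 305 and 259 CPM in Smarca4+/+ CB, 245 and 279 CPM in Smarca4+/- CB, 343 and 263 CPM in Smarca4+/+ CC and 294 and 365 CPM in Smarca4+/- CC. It did not pass in either genotype (log2 fold change 0.10, SE 0.21, and 0.33, SE 0.21; adjusted p = 0.79 and 0.424). Tnfrsf13b (ENSMUSG00000010142.12, chr11:61126755-61149372) was tight in CB, at 87.9 and 86.5 CPM in Smarca4+/+ and 92.3 and 92.9 CPM in Smarca4+/- libraries. In CC it stood at 122 and 144 CPM in Smarca4+/+ and at 109 and 101 CPM in Smarca4+/- libraries. Both CC groups lay above CB, with log2 fold changes of 0.61 (SE 0.23, adjusted p = 0.142; DESeq2 adjusted p = 0.000317) and 0.18 (SE 0.23, adjusted p = 0.716). The third receptor gene of this family, Tnfrsf17 (BCMA), was at 0 in all CC libraries, where a count of 0 allows 3.56 to 5.36 CPM, and reached at most 0.316 CPM in CB.

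Counted by overlap alone, 6 of the 10 genes were higher in both Smarca4+/+ CC libraries than in both CB libraries and none lower, beside 56.7% of all genes without overlap, 18.2% higher and 38.5% lower. Among Smarca4+/- libraries 8 were higher and none lower, beside 53.4%, 20.2% and 33.2%. The 2 comparisons share no library. Of the 10 genes, 5 had an unadjusted p under 0.05 in each genotype, against 23.3% and 18.2% of all genes.

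Whether the loss of 1 Smarca4 copy altered these genes was asked within each fraction. None of the 10 passed the edgeR test in CB or in CC, where 0% and 0.0231% of all genes were called, and none had an unadjusted p under 0.05, against 0.646% and 15.2% of all genes. DESeq2 also called none of the 10 in either fraction. In CB 9 of the 10 estimates were negative, also under the 3 other scalings, with a median log2 fold change of -0.21 beside -0.00435 over all genes, while with CB thinned to the CC depth those of Cd40 and Slamf1 were positive (0.04 and 0.09). Without Smarca4+/+ CB replicate 1 that of Tnfrsf13c was 0.00096. In CC 6 were positive and 4 negative, with a median of 0.10 beside 0.03, and Cd86, at -0.0049, turned positive with total count scaling. With 1 library left out, the CC estimates of Cd86, Fcer2a, Icosl, Il21r, Il4ra, Slamf1 and Tnfrsf13c took either sign. That of Icosl ran from -0.43 to 0.47 and that of Il4ra from -0.65 to 0.13. Cd83, Cd40 and Tnfrsf13b kept their sign.

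**Figure D4:**
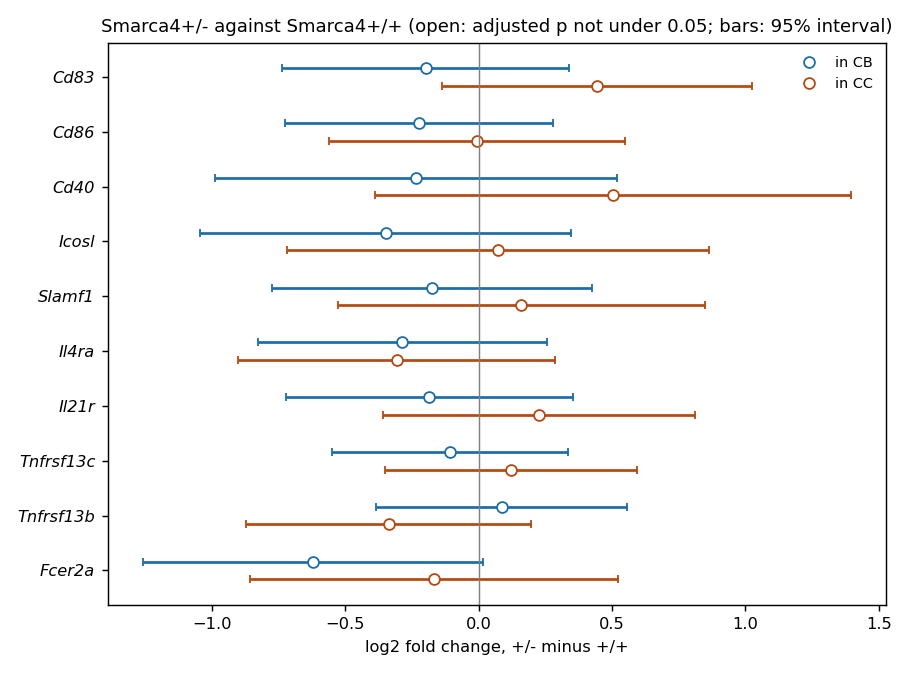
Log2 fold change of Smarca4+/- against Smarca4+/+ libraries for each gene in CB (blue) and CC (orange) with its 95% interval; all points are open because none passed. Every interval includes 0, and the estimate farthest from 0 is that of Fcer2a in CB (-0.62).

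In CB both Smarca4+/- libraries lay below both Smarca4+/+ libraries for 5 of the 10 genes (Cd83, Cd40, Fcer2a, Il21r and Il4ra) and above them for Tnfrsf13b, beside 32.1% of all genes without overlap, 15.8% lower and 16.2% higher. For Cd83 the groups nearly touched, at 131.02 against 130.74 CPM. The largest estimate was that of Fcer2a, which averaged 64.2 ± 18.2 CPM in Smarca4+/+ and 41.7 ± 7.64 CPM in Smarca4+/- CB (SD, n = 2; log2 fold change -0.62, 95% interval -1.26 to 0.01, edgeR adjusted p = 1). It was -0.31 without Smarca4+/+ CB replicate 1 and -0.87 without replicate 2. Of the 10 genes, 9 had their lowest CB level in 1 library, Smarca4+/- replicate 1. It also had the lowest sum of the 10 B cell genes in CB, 5448 CPM against 5955 to 6452 CPM, and 9 of those 10 genes had a negative estimate too (median -0.07). Without that library the log2 fold change in CB became -0.11 for Il4ra (from -0.29), -0.08 for Il21r (from -0.18), -0.12 for Cd83 (from -0.20), -0.17 for Cd40 (from -0.23) and -0.44 for Fcer2a (from -0.62). For Cd86, Icosl, Slamf1 and Tnfrsf13c it became -0.08, -0.18, -0.10 and -0.01.

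In CC the genotypes overlapped for 9 of the 10 genes. Tnfrsf13b alone did not overlap, at 133 ± 15.8 CPM in Smarca4+/+ and 105 ± 6.17 CPM in Smarca4+/- libraries (SD, n = 2; log2 fold change -0.34, 95% interval -0.87 to 0.20, edgeR adjusted p = 0.507), beside 32.6% of all genes without overlap, 14.4% lower and 18.1% higher. Its CB estimate had the other sign (0.09), and the interaction did not pass (-0.42, SE 0.32, adjusted p = 0.665). Cd83 (log2 fold change 0.44, 95% interval -0.14 to 1.02, adjusted p = 0.434) and Cd40 (0.50, 95% interval -0.39 to 1.39, adjusted p = 0.552) had the largest positive estimates. Without Smarca4+/- CC replicate 2 these fell to 0.09 and 0.16.

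That library, Smarca4+/- CC replicate 2, held the highest CC level of 7 of the 10 genes, all but Cd86, Il4ra and Tnfrsf13b. It also held the lowest macrophage sum of the CC libraries (1558 CPM), the lowest T cell sum (217 CPM) and the highest sum of the 10 B cell genes (6018 CPM against 4746 to 5537 CPM). The summed level of the 10 surface genes was 2033 CPM in it and 1512 CPM in the other Smarca4+/- CC library.

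The interaction, which asks whether CC and CB differed by the same amount in both genotypes, was called for none of the 10 genes and for 0% of all genes by edgeR. At an unadjusted p under 0.05 it held none of the 10 and 1195 of 12997 genes, and DESeq2 called 259 genes, none of them among the 10. The estimate was positive for 8 of the 10 and ranged from -0.42 (Tnfrsf13b) to 0.74 (Cd40), with a median of 0.37 beside 0.10 over all genes. With 1 library left out it fell as low as -0.08 for Icosl, -0.01 for Il21r and -0.07 for Slamf1. For Il4ra it rose as high as 0.41. The median over all genes was -0.02 with B cell scaling. For Cd86 the interaction estimate was 0.22 with a 95% interval of -0.53 to 0.97, and for Fcer2a 0.45 with an interval of -0.48 to 1.39.

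Markers of macrophages, T cells, dendritic cells and red cells summed higher in CC than in CB. Those of plasma cells did not, at 462 to 574 CPM in CB and 419 to 525 CPM in CC. Cd86 and Cd83, genes that macrophages and dendritic cells can express, were also higher in CC. Among the CC libraries, Smarca4+/- CC replicate 2, with the lowest macrophage sum, held the highest Cd83 level (357 CPM) and the lowest Cd86 level (132 CPM). Macrophage markers summed to 47.1 to 246 CPM in CB and to 1558 to 3651 CPM in CC, and 10 of 12 rose in Smarca4+/+ and 11 of 12 in Smarca4+/- cells. No macrophage marker was at 0 in a CC library, and C1qa stood at 87.7 to 235 CPM there. T cell markers, which bear on Slamf1, Il4ra and Il21r, summed to 112 to 137 CPM in CB, 634 to 729 CPM in Smarca4+/+ CC and 217 to 304 CPM in Smarca4+/- CC. Nearly all of the CB sums was Lck, which averaged 132 CPM in Smarca4+/+ CB and 109 CPM in Smarca4+/- CB. No other T cell marker averaged more than 1.55 CPM in a CB group. In CC Lck averaged 183 CPM in Smarca4+/+ and 133 CPM in Smarca4+/- libraries. Of these 14 markers 11 rose in Smarca4+/+ and 7 in Smarca4+/- cells, and Cd3e was at 0 in both Smarca4+/+ CB libraries. Dendritic cell markers summed to 24.6 to 32.0 CPM in CB and 34.7 to 78.5 CPM in CC, with 2 to 6 of 9 at 0 in each CC library and none of the 4 tested genes called. Red cell markers summed to 7.64 to 14.1 CPM in CB and to 119 to 778 CPM in CC. Mitochondrial genes took 0.699% to 1.402% of reads in CB and 2.235% to 5.859% in CC. The part of these cells and of the mitochondrial share in the differences of Cd86 and Cd83 was not tested, while the 10 B cell genes summed to 5448 to 6452 CPM in CB and 4746 to 6018 CPM in CC.

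**Figure D5:**
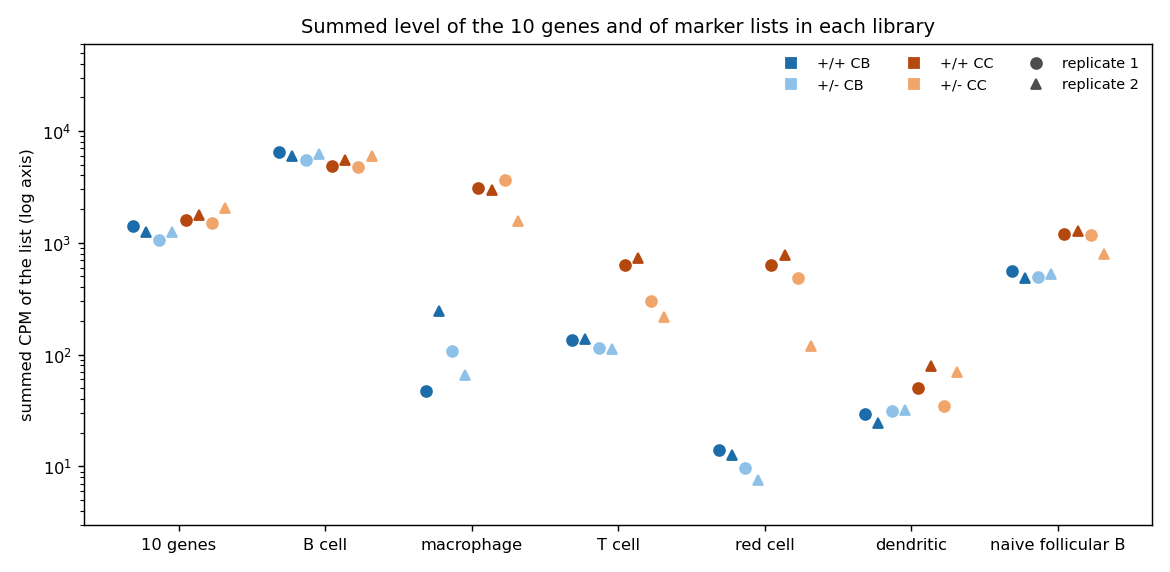
Summed CPM of the 10 surface genes and of marker lists in each library, on a log axis, coloured by group, with circles for replicate 1 and triangles for replicate 2. Macrophage, T cell and red cell sums are higher in every CC library than in every CB library, while the B cell sums lie between 4746 and 6452 CPM throughout.

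Genes that act with these receptors were counted by list. Of 10 adaptors and factors of CD40 and BAFF receptor signalling, none was called in Smarca4+/+ cells (median log2 fold change -0.10). In Smarca4+/- cells Nfkb2, the NF-kB subunit gene of the CD40 and BAFF-R pathway, rose from 59.5 and 70.3 to 163 and 143 CPM (log2 fold change 1.24, SE 0.24, adjusted p = 0.0201). The adaptor gene Traf5 fell from 73.7 and 84.6 to 34.7 and 29.6 CPM there (-1.30, SE 0.29, adjusted p = 0.0328), and 8 did not pass. The Nfkb2 call also ended without Smarca4+/- CC replicate 1 (adjusted p = 0.13). That of Traf5 did not pass under any of the 3 other scalings (0.052 to 0.105) and ended without Smarca4+/+ CB replicate 1 (0.106) or 2 (0.111) and Smarca4+/- CC replicate 1 (0.125) or 2 (0.0677). The Traf5 call also ended with CB thinned to the CC depth (edgeR adjusted p = 0.0961) and with only the Smarca4+/- libraries fitted (0.0645). Of 11 tested genes of IL-4 and IL-21 signalling, such as the kinase gene Jak3 and the factor gene Stat6, none was called in either genotype, with medians of 0.23 in both. None of 7 tested SLAM family members was called in either genotype (medians 0.20 and 0.70).

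Of 8 tested genes for other surface molecules facing T cells, Cd274, the gene of PD-L1, rose in Smarca4+/+ cells from 11.2 and 7.61 to 75.1 and 29.4 CPM (log2 fold change 2.47, SE 0.67, adjusted p = 0.0471). The call ended without Smarca4+/+ CB replicate 1 (adjusted p = 0.218) or 2 (0.313), Smarca4+/- CB replicate 1 (0.106) or 2 (0.108) and Smarca4+/+ CC replicate 1 (0.194). The Cd274 call also ended with CB thinned to the CC depth (edgeR adjusted p = 0.117) and with only the Smarca4+/+ libraries fitted (0.0972). PD-L1 is also made by macrophages and other cells whose markers were higher in CC. Of the 8, Cd24a alone was called in Smarca4+/- cells and fell (-0.76, SE 0.18, adjusted p = 0.043), a call that did not pass under the 3 other scalings (0.0695 to 0.143), with the replicate block (0.052), or without Smarca4+/+ CB replicate 1 (0.116) or 2 (0.121) and Smarca4+/- CC replicate 1 (0.171). The Cd24a call also ended with CB thinned to the CC depth (edgeR adjusted p = 0.151) and with only the Smarca4+/- libraries fitted (0.127). It ended as well with a filter of at least 50 counts in 2 libraries (0.075). Cd80, the sister ligand of Cd86, was scarce, at 2.11 to 3.95 CPM in CB and 0 to 3.27 CPM in CC. Of the genes of the T cell's side, 4 of 8 could be tested, and Cd28 and Cxcr5 rose in Smarca4+/+ cells and none in Smarca4+/- cells. Cd28, the receptor of CD86 on T cells, stood at 0.406 and 0.187 CPM in Smarca4+/+ CB and 17.9 and 49.0 CPM in CC (adjusted p = 0.0191), together with the T cell markers. Cxcr5, the follicle homing receptor of B cells and T follicular helper cells alike, rose from 211 and 184 to 348 and 369 CPM (0.86, SE 0.19, adjusted p = 0.0193). Both calls ended without Smarca4+/+ CB replicate 1 (0.181 for Cd28 and 0.097 for Cxcr5) or 2 (0.237 and 0.179) and without CC replicate 2 (0.0812 and 0.0528). The Cd28 call also ended with CB thinned to the CC depth (edgeR adjusted p = 0.0558). That of Cxcr5 also ended with only the Smarca4+/+ libraries fitted (0.0583). No gene of these lists was called between genotypes in CB or CC. Dark zone genes fell in CC in 5 of 5 in Smarca4+/+ and 4 of 5 in Smarca4+/- cells, among them Cxcr4 (-2.33 and -1.96).

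Across the 8 libraries the 10 genes did not vary as a block. As a description over log2(CPM + 1), Pearson's r was highest for Cd83 with Cd40 (0.987) and lowest for Il4ra with Tnfrsf13c (-0.32), with a median of 0.58 over all pairs; the libraries share 2 depths and 2 fractions. Among 6270 other genes that averaged 20 CPM or more, those most like Cd86 were Arhgap9 (r = 0.992), Plcb2 (0.990) and Arrb1 (0.987). Plcb2 averaged 34.3 and 24.5 CPM in Smarca4+/+ and Smarca4+/- CB and 95.3 and 86.7 CPM in CC. Those most like Cd83 were Gtf3c2 (0.964), Pdxk (0.960) and Lyst (0.958).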

How the data were processed

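Read counts per gene were deposited for 8 bulk RNA sequencing libraries, made from total RNA depleted of ribosomal RNA, per the labels' protocols. Per the submitters' processing notes the authors used FastQC, STAR, featureCounts, Subread and R 4.2.1 with build mm10. No strand setting and no rule for reads with several positions is given in the sources used here. Gene length in bases, from the deposited table, gave the RPKM. Identifiers were matched to symbols through GENCODE M21 tables, where 55154 of 55421 had one.

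Counts were fitted in R 4.3.3 with edgeR 4.0.16 (quasi-likelihood, TMM, filterByExpr with minimum count 10 and minimum total 15, 12997 genes kept, all 10 members among them), with 1 mean per group over all 8 libraries. For the 5 contrasts 2-sided p-values were adjusted over all genes (Benjamini-Hochberg, 0.05). Each SE was the log2 fold change over the root of its F value, and 95% intervals used that SE. Total counts of 526353 to 837558 in CC limit precision there, and counting intervals cover counting error only, as no molecular identifiers are named. Equal replicate numbers were not used as pairs, as the labels do not say what they share. Alternatives were DESeq2 1.42.0, RLE, total count and B cell gene scaling, 2 other filters, a replicate block, only the groups compared, CB libraries thinned to 657641 counts, and each library left out. The genes named were the 10 members, Smarca4, up to 4 called genes per list, and the 3 genes most like Cd83 and Cd86. Cr2, Fcmr, C1qa, Cd3e, Lck, Cxcl13, Cd80 and Tnfrsf17 were singled out after their values were seen. Members and lists were chosen with earlier results of these data known.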

Additional observations from a re-analysis of the deposited data

How the results depend on the processing

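The 10 genes were called in the same direction under every setting that called them. In Smarca4+/+ cells 2 were called higher in CC, and 5 with DESeq2 (Cd83, Slamf1 and Tnfrsf13b added), 0 when only the groups compared were fitted, where the adjusted p of Cd86 was 0.0668 and of Fcer2a 0.0537, and 0 to 2 with 1 library left out. In Smarca4+/- cells 3 were called, and 5 with DESeq2 (Cd40 and Slamf1 added), 1 with only the groups compared, and 0 to 4 with 1 library left out. Both counts were the same with RLE, total count or B cell scaling, with either other filter, with the replicate block and with CB thinned to the CC depth. Counts of the genotype comparisons and the interaction were 0 under all settings run. Over all genes, called numbers ranged with 1 library left out from 222 to 1413 for Smarca4+/+ CC against CB and from 0 to 932 for Smarca4+/-, against 973 and 477. They were 2047 and 1386 with DESeq2, 1651 and 1142 without a filter, 292 and 308 with only the groups compared, and 614 and 251 with CB thinned. For genotype in CC they were 712 with DESeq2 and 323 without a filter, against 3. The split of higher and lower genes in Smarca4+/+ cells, 484 and 489, became 541 and 367 with RLE, 568 and 289 with total counts and 557 and 224 with B cell scaling; in Smarca4+/- cells 282 and 195 became 305 and 122, 326 and 99, and 294 and 83. Deviations of same-numbered replicates from their group means correlated between -0.08 and 0.07 over 6280 genes. With so few reads in CC, this cannot tell whether CB and CC libraries of 1 number came from the same mice. The numbers were not used as pairs. With the replicate block 812 and 443 genes were called, and 2 and 3 of the 10. The CC depth limits Cd40 most, with 18 to 56 reads a library.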
